A study of Mus musculus with 25 samples.

Results

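The proteasome genes were taken as every row of the count tables whose symbol has the form Psma, Psmb, Psmc, Psmd, Psme, Psmf or Psmg followed by a number. The rule found 50 genes among 29244 symbols. They were 8 alpha and 7 constitutive beta subunits of the 20S core, 4 alternative beta subunits, 6 ATPases and 11 other subunits of the 19S cap, 3 assembly chaperones of the cap and 4 of the core, 5 genes of other activators, the regulator Psmf1 and Psmc3ip. Psmc3ip is not a subunit: its symbol matches the rule, but its product acts with the meiotic recombinases, so it is left out of all sums over members, but counts of members tested include it.

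Single-cell suspensions of mouse testis were profiled by Drop-seq, which tags the 3′ end of each transcript with a cell barcode and a unique molecular identifier (UMI). There were 11 libraries from wild-type C57BL/6 testis (WT; from 3 months and 1 day to 9 months and 14 days of age) and 6 from Mlh3-/- testis of strain background B6;129 (2 months and 21 days to 8 months and 30 days). The remaining whole-testis libraries were 2 labelled Cul4a-/-, also B6;129 (1 month and 18 or 21 days), and 2 labelled CNP eGFP BAC TRAP on C57BL/6 (2 months and 14 or 16 days). A single library each came from sorted spermatogonia (SPG), primary spermatocytes (SPCI), secondary spermatocytes (SPCII) and spermatids (SPD). The SPG cells were GFP-positive cells of pups of 7 days, labelled Pouf51-EGFP on C57BL/6 (in the study's methods a Pou5f1-EGFP line of B6;CBA background), pooled from 5 mice, and the other sorted cells were sorted by Hoechst staining from wild-type C57BL/6 testis at 2 months and 21 days. Mlh3 encodes a MutL homologue needed for meiotic crossovers, Cul4a a cullin of a ubiquitin ligase, and the CNP mice carry a transgene. The mutations are in the whole animal, germ line and somatic cells alike. Genotype went with the B6;129 background in the Mlh3-/- and Cul4a-/- animals, and with a younger age in the Cul4a-/- and CNP animals, so genotype cannot be told apart from background in the Mlh3-/-, from background and age in the Cul4a-/- and from age in the CNP animals. Mlh3-/- replicates 4, 5 and 6 (2 months and 21, 22 and 23 days) were also younger than every WT animal, so age went with genotype in part there. Strains and ages are those of the labels. The methods write the Mlh3 line as B6.129, and the study's sample list has the ages of the Cul4a-/- and CNP animals the other way round, which leaves both younger than WT. WT replicates 1 and 2 and the SPG library were dissociated enzymatically, all others mechanically. WT replicates 1 and 3, Mlh3-/- replicates 1 and 2 and the SPCI, SPCII and SPD libraries were sequenced on a MiSeq, all others on a HiSeq.

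The proteasome is the protease that degrades ubiquitin-tagged proteins. Its 20S core is a stack of alpha and beta rings with the active sites on the beta subunits, and the 19S cap binds, unfolds and feeds the substrate into the core. Immune cells, and cells exposed to interferon, exchange the 3 catalytic beta subunits for the immunoproteasome forms Psmb8, Psmb9 and Psmb10, and often use the activator formed by Psme1 and Psme2 in place of the 19S cap. Male germ cells have a further form, the spermatoproteasome, in which the alpha subunit Psma8 takes the place of Psma7 and which is associated with the activator Psme4 (PA200).

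Totals ranged from 357235 to 9745302 UMIs per whole-testis library and from 107117 to 1168498 per sorted library. The 49 genes without Psmc3ip held 482360 of 65063387 UMIs (0.741%). Of the 50 genes, 39 were detected in all 25 libraries, and Psmb11, a subunit of thymic cells, had 1 UMI in the whole series. Cells were clustered without the 50 genes, and clusters were named from marker genes, so each class below is "-like" and was not built on the 50 genes. Other genes described below, such as pathway partners and antigen presentation genes, were not held out of the clustering. The classes used were spermatogonia-like (73 cells in 5 libraries, none WT), leptotene/zygotene-like (565 in 17), pachytene-like (1742 in 17) and meiotic division-like cells, 2 spermatid classes (round and elongating), and, of the somatic cells, Sertoli-like (321 in 11) and Leydig-like cells (651 in 8, none WT). In WT libraries the stage comparisons used 436 pachytene-like and 1934 division-like cells of 9 libraries and 2781 round and 3208 elongating spermatid-like cells of 11. Of all filtered WT cells, 64.9% lay in clusters left unnamed, so the classes hold a minority of them. The enzymatic WT libraries had too few pachytene-like and division-like cells to enter those classes. Of 48081 distinct barcodes, 430 occurred in more than 1 library. The targeted genes do not check the labels: Mlh3 was at 10.7, 47.4 and 72.9 CPM (UMIs of the gene per 1000000 UMIs; lowest, median, highest) in WT and 26.2, 47.5 and 86.5 in Mlh3-/- libraries, and Cul4a was at 5.60, 36.3 and 45.7 in WT and 49.1 and 54.5 in the libraries labelled Cul4a-/-. Counting at the 3′ end cannot show a deletion elsewhere in a transcript, and the deleted exons are not given in the sources used here.

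Levels are CPM, the UMIs of a gene per 1000000 UMIs of the library or of the class in that library. Each transcript is counted once at its 3′ end, so levels of different genes can be set side by side without dividing by length. A level is a share of the measured RNA, so fewer expressing cells and less RNA per cell cannot be told apart. Fold changes are log2 values from edgeR's quasi-likelihood test with TMM scaling, with standard errors (SE). They were called at a Benjamini-Hochberg adjusted p under 0.05 over all genes tested, and they can differ from the ratio of CPM values because TMM rescales the libraries.

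The sequences shown first are the RefSeq (GRCm38.p6) bases just before the start of the 3 genes that rose from dividing cells to elongating spermatids while most other subunits fell (described below), 250 bases each, 5′ to 3′ on the strand of the gene. Psma6 has 2 RefSeq starts, and both are shown. Capitals mark TGACG, the core of the site bound by cAMP-responsive factors, where a search of both strands found it.

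Psmf1 (chr2:151741311-151741560, minus strand): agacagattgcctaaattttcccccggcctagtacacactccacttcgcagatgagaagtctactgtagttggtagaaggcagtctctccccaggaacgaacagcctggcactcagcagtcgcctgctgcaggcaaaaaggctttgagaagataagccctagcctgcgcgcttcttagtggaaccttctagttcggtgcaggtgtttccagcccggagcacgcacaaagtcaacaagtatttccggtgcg
Psme3 (chr11:101315963-101316212, plus strand): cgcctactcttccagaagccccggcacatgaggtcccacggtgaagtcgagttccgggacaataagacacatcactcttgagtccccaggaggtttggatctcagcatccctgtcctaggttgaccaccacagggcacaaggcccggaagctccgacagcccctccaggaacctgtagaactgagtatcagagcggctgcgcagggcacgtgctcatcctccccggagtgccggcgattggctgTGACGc
Psma6, first start (chr12:55383972-55384221, plus strand): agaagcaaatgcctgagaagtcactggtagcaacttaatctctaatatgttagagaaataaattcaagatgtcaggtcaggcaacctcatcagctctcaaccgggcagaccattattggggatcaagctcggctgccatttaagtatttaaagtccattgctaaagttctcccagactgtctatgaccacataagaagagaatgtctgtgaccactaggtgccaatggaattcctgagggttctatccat
Psma6, second start (chr12:55398575-55398824, plus strand): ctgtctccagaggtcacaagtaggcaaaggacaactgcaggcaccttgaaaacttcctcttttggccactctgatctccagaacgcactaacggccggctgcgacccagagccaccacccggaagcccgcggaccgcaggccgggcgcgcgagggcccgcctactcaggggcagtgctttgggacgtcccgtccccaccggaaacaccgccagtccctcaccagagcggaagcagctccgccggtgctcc

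RefSeq starts were matched for 42 of the 50 genes. In the window from 250 bases before to 50 bases after the start, TGACG, read on either strand, was found in 19 of the 42 genes (45.2%) and in 20.8% of all 32851 promoter windows. The longer cAMP-response palindrome TGACGTCA, which contains TGACG, was found in 0 of them and in 1.79% of all windows. TGACNNNGC, the antioxidant response core bound by the proteasome gene activator Nfe2l1 and its relatives, which can overlap TGACG, was found in 6 genes (14.3%; Psmb5, Psmb6, Psmc6, Psmd9, Psmd12 and Psme4) and in 12.4% of all windows. Among the late-rising genes printed above, Psme3 alone held TGACG, and none held TGACNNNGC. These are matches of letters in a window, not binding sites.

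Proteasome transcripts as a whole were a larger share of the RNA early in spermatogenesis than late. In spermatogonia-like cells the 49 genes without Psmc3ip summed to 10778, 14831 and 16440 CPM (lowest, median and highest of 5 libraries). In WT pachytene-like cells the sum was 9134, 9481 and 12193 CPM (9 libraries), and in division-like cells 7369, 7567 and 8030 CPM. Round spermatid-like cells had 5317, 6693 and 7238 CPM and elongating spermatid-like cells 4184, 6369 and 7394 CPM (11 libraries each), ranges that overlapped each other but not those of the pachytene-like cells. The sorted cells, with 1 library each, gave 14371 CPM in SPG, 7562 in SPCI, 6079 in SPCII and 6249 in SPD. The sum hides opposite courses, since a few genes rose several-fold while most fell.

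**Figure D1:**
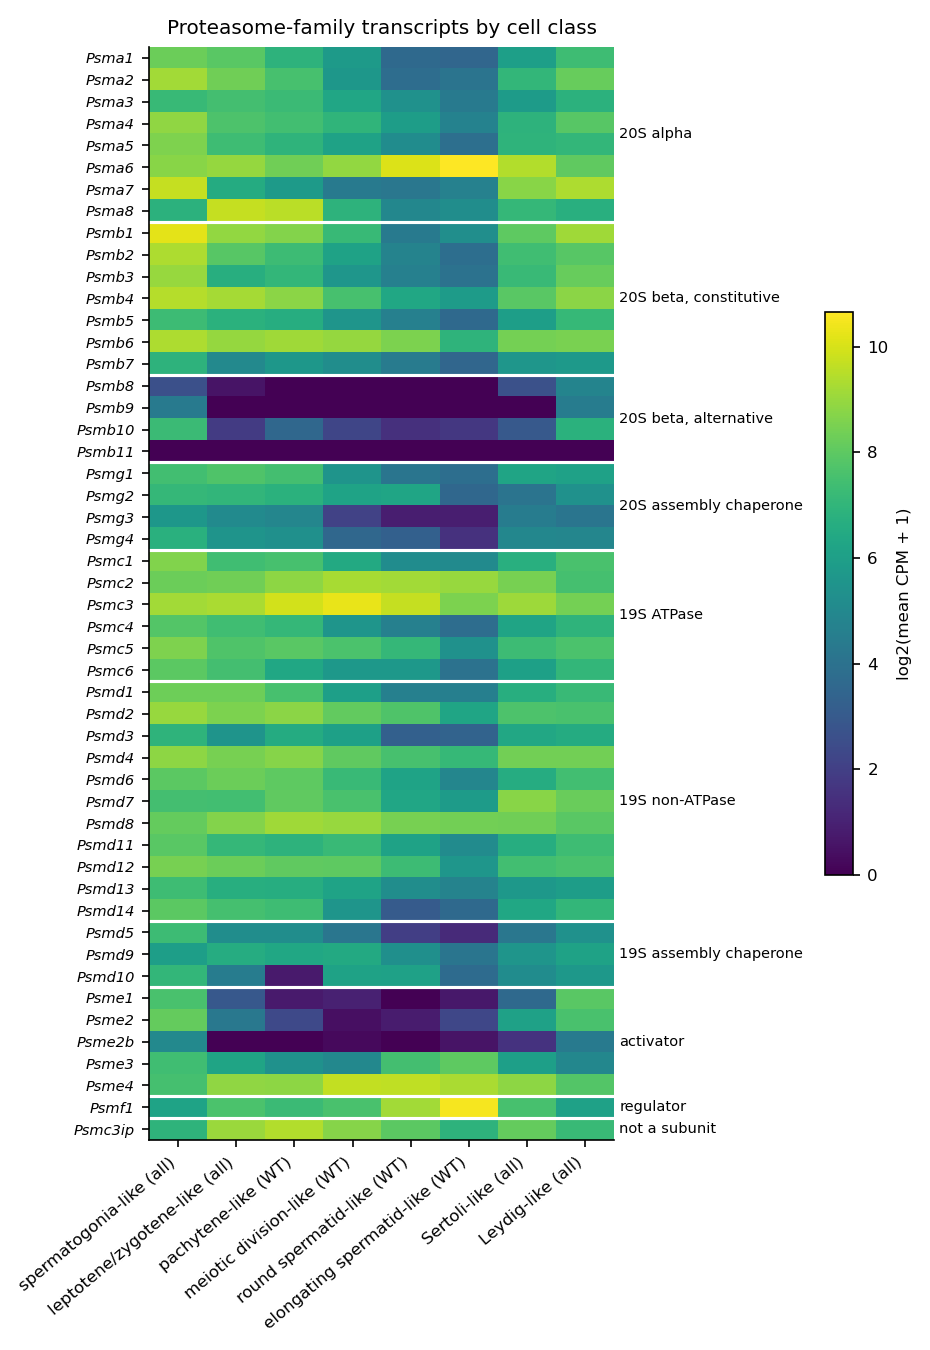
Mean level of each proteasome gene (rows, grouped by role) in each cell class (columns), as log2 of CPM plus 1. The spermatocyte and spermatid classes are WT libraries, and spermatogonia-like, leptotene/zygotene-like, Sertoli-like and Leydig-like cells are from all strains. Psma7 and Psma8 show opposite patterns, Psme1 and Psme2 are near 0 in the meiotic and later classes, and Psma6, Psmf1 and Psme3 are highest in the spermatids.

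Psma7 and Psma8 differed in opposite directions between spermatogonia-like and pachytene-like cells. Psma7 was at 718, 773, 817, 939 and 992 CPM in the 5 spermatogonia-like samples and at 25.6, 57.7 and 195 CPM (lowest, median, highest) in 17 pachytene-like samples, without overlap (log2 fold change of pachytene against spermatogonia -2.79, SE 0.24, edgeR adjusted p = 1.79e-28). Psma8 went the other way, from 70.9, 74.8, 85.1, 93.9 and 239 CPM to 540, 707 and 1047 CPM, also without overlap (+3.24, SE 0.34). Both genes thus changed by several-fold in opposite directions. Leptotene/zygotene-like cells were already on the later side of the exchange, with Psma8 at 120, 859 and 1635 CPM and Psma7 at 0, 83.9 and 284 CPM in 17 libraries. Of the UMIs of the pair, Psma8 held 10.6% in spermatogonia-like cells (6.67% to 25% over libraries), 89.8% in leptotene/zygotene-like and 92.0% in pachytene-like cells.

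The sorted cells, which had no replicates, showed the same order. In SPG, Psma7 was at 812 CPM (95% exact Poisson interval 761 to 866) and Psma8 at 62.5 CPM (49.0 to 78.6), and Psma8 made up 73 of 1022 UMIs of the pair (7.14%, exact binomial interval 5.64% to 8.90%). In SPCI, Psma7 was at 18.7 CPM (2.26 to 67.4) and Psma8 at 448 CPM (330.4 to 594), 48 of 50 UMIs (96%, 86.3% to 99.5%). The share was 10 of 21 UMIs in SPCII (47.6%, 25.7% to 70.2%) and 16 of 19 in SPD (84.2%, 60.4% to 96.6%), where few UMIs leave wide intervals. The intervals cover counting error only. Elongating spermatid markers summed to 7543 CPM in SPCI, 58270 CPM in SPCII and 110222 CPM in SPD, and 158 of 188 filtered SPCI cells lay in an unnamed cluster.

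After pachytene Psma8 fell. In WT it was at 660, 702 and 915 CPM (lowest, median, highest; 9 libraries) in pachytene-like cells and at 97.0, 106 and 149 CPM in division-like cells, without overlap (-2.08, SE 0.11, edgeR adjusted p = 7.56e-75). It was at 3.97, 29.6 and 44.2 CPM in round spermatid-like cells, again without overlap (-1.68, SE 0.15, edgeR adjusted p = 3.9e-28), and at 21.4, 30.4 and 70.9 CPM in elongating spermatid-like cells (+0.81, SE 0.20, a rise not called when libraries were scaled to total counts). The drop was thus nearly complete by the round spermatid stage. Psma7 did not come back as Psma8 fell: it was at 25.6, 51.6 and 81.5 CPM in pachytene-like, 13.6, 18.4 and 34.2 in division-like, 7.25, 15.9 and 29.2 in round and 0, 25.1 and 41.7 CPM in elongating spermatid-like cells. Its fall after pachytene (-0.91, SE 0.26) and its rise from round to elongating cells (+1.07, SE 0.23, edgeR adjusted p = 1.55e-05) passed the test, and the step between them did not (+0.16, SE 0.24). In libraries with at least 20 UMIs of the pair, the share of Psma8 was 90.1% to 96.3% in WT pachytene-like, 79.3% to 90.3% in division-like, 45.9% to 80% in round and 43.6% to 82.6% in elongating spermatid-like cells.

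**Figure D2:**
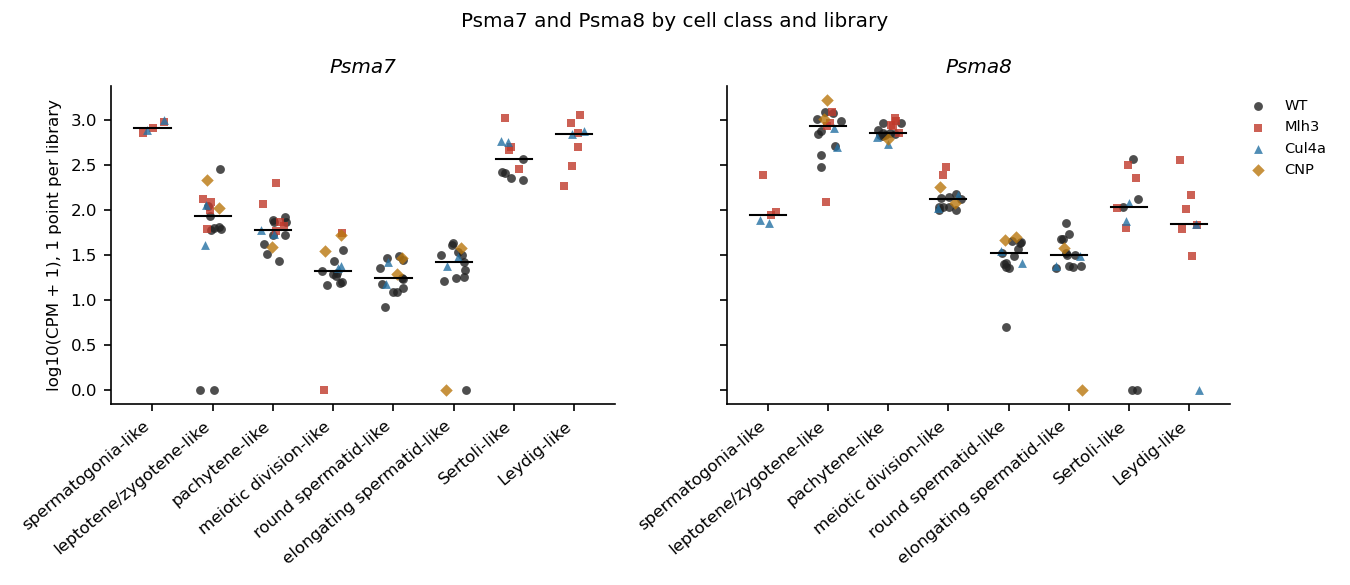
Psma7 and Psma8 in each library (points, coloured by strain) and cell class, as log10 of CPM plus 1. The black line is the median over all strains. Psma7 is above Psma8 in the 5 spermatogonia-like samples and in most Sertoli-like and Leydig-like samples, and Psma8 is above Psma7 from leptotene/zygotene-like to division-like cells.

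Most somatic samples had more Psma7 than Psma8. Psma7 was at 211, 368 and 1051 CPM in 11 Sertoli-like samples, above all pachytene-like samples (+2.54, SE 0.21), and at 182, 698 and 1124 CPM in 8 Leydig-like samples, which overlapped them (+3.13, SE 0.19, edgeR adjusted p = 1.17e-57). Psma8 was at 0, 105 and 369 CPM in Sertoli-like and 0, 68.0 and 360 CPM in Leydig-like samples, below every pachytene-like sample (-2.50, SE 0.23, and -2.84, SE 0.24). Psma8 was above Psma7 in the Sertoli-like cells of WT replicate 8 (369 against 221 CPM) and in the Leydig-like cells of Mlh3-/- replicate 1 (359.9 against 306 CPM), which were 386 of the 651 cells of that class. The Psma8 share of the pair was 0%, 8.47% and 54.0% over the 7 Leydig-like samples with at least 20 UMIs of the pair, and 222 of 754 UMIs in all (29.4%). Psma8 was detected in most of these somatic samples, and germ cell markers were present as well. The 14 pachytene markers summed to 4388, 11304 and 14620 CPM in Sertoli-like and 2114, 4152 and 10294 CPM in Leydig-like cells, against 15737, 22429 and 27626 CPM in pachytene-like cells. The part of germ cell RNA in the somatic Psma8 level was not tested.

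Of the immunoproteasome genes, Psme1, Psme2, Psmb9 and Psmb10 were lower in pachytene-like than in spermatogonia-like cells, and Psmb8 was hardly detected in either. Psme1 and Psme2, the 2 subunits of the 11S activator, were at 79.8, 125, 153, 283 and 324 CPM and at 102, 239, 307, 344 and 399 CPM in the spermatogonia-like samples, and at 0, 0 and 33.9 CPM and 0, 5.58 and 42.2 CPM in pachytene-like samples (-5.09, SE 0.46, and -4.44, SE 0.39), without overlap. Psmb10, which replaces Psmb7 in the core, was at 23.6, 119.7, 153, 188 and 274 CPM against 0, 10.7 and 25.1 CPM (-2.37, SE 0.45). All 5 spermatogonia-like samples had UMIs of these 3 genes, and the Psmb10 ranges overlapped. Psmb9, which replaces Psmb6, had 4 UMIs in spermatogonia-like and 0 in pachytene-like cells (-4.78, edgeR adjusted p = 0.00192). Psmb8, which replaces Psmb5, had 1 UMI in spermatogonia-like cells, and its log2 fold change of -2.09 did not pass the test. Psme2b, a near copy of Psme2 whose reads cannot be fully told from it, had 6 UMIs in spermatogonia-like and 3 in pachytene-like cells (-4.71).

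SPG showed the same genes at greater depth. Psme1 was at 249 CPM (221 to 279), Psme2 at 205 CPM (180.2 to 233) and Psmb10 at 121 CPM (102 to 142). Psmb10 made up 141 of 226 UMIs of the pair with Psmb7 (62.4%, 55.7% to 68.7%). Psmb9 made up 18 of 817 UMIs with Psmb6 (2.20%) and Psmb8 2 of 241 with Psmb5 (0.830%), so the transcript shares of the 3 pairs were far apart in these cells. The partners differed too, with Psmb7 at 72.7, Psmb6 at 684 and Psmb5 at 205 CPM. These shares are of RNA and do not measure the subunits in the particles. In SPCI, Psme1, Psmb8, Psmb9 and Psmb10 had 0 UMIs, and 3 counts, the floor for a count of 0, would be 28.01 CPM there.

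In WT germ cells from pachytene on these genes stayed at a few UMIs. Psme1 had 1 UMI in the 436 pachytene-like, 5 in the 1934 division-like, 0 in the 2781 round and 3 in the 3208 elongating spermatid-like cells. Psme2 had 5, 2, 5 and 13 UMIs, and its rise in elongating cells (+2.04, SE 0.76, edgeR adjusted p = 0.0238) was not called with total-count scaling. Psmb10 was at 0, 8.06 and 25.1 CPM in pachytene-like cells (15 UMIs) and 0, 2.04 and 17.1 CPM in division-like cells (9 UMIs; -1.89, SE 0.65, edgeR adjusted p = 0.00966). Psmb8, Psmb9, Psmb11 and Psme2b had too few UMIs to be tested in the WT stages.

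In Leydig-like cells Psme1, Psme2 and the 3 alternative beta subunits tested were all higher than in pachytene-like cells. Psme1 was at 87.7, 273 and 356 CPM and Psme2 at 87.7, 195 and 313 CPM, above every pachytene-like sample (+6.26, SE 0.33, edgeR adjusted p = 1.86e-79 for Psme1; +4.80 for Psme2). Psmb10 was at 14.8, 70.6 and 303 CPM (+2.39, SE 0.36) and made up 56.0% of the UMIs of its pair. Psmb8 was at 0, 24.2 and 58.5 CPM (+4.68), and Psmb9 at 0, 7.42 and 82.9 CPM, with 21 UMIs against 0 in pachytene-like cells. Psmb9 lies beside Psmb8 and the peptide transporters Tap1 and Tap2 in the major histocompatibility complex, and 6 of 9 antigen presentation genes were also higher in Leydig-like cells and 0 lower (of all genes 16.9% and 14.1%), with B2m, the light chain of class I molecules, +4.74 and Tap2 +4.46. Sertoli-like cells had Psme2 at 0, 60.7 and 193 CPM (+3.41, SE 0.39), but 0 of 3 alternative beta subunits and 1 of 5 activators were higher there, with Psme1 at +1.86 (edgeR adjusted p = 0.0542), and 3 of the 9 antigen presentation genes were higher and 0 lower (of all genes 16% and 14.3%). The macrophage list summed to 0, 126 and 534 CPM in Leydig-like and 0, 88.9 and 503 CPM in Sertoli-like samples. In pachytene-like samples it was at 12.4, 28.8 and 127 CPM, overlapping both. In the 2 Cul4a-/- Leydig-like samples, 1 of which had the highest Psmb9, it was at 35.1 and 69.1 CPM. The part of macrophage RNA in these levels was not tested. Of the Leydig-like cells, 579 of 651 were from Mlh3-/- libraries, 256 of them in a cluster that was 98.8% Mlh3-/- replicate 1.

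Over all roles, pachytene-like cells against spermatogonia-like cells had 8 of 49 tested members higher, Psmc3ip among them, and 14 lower, where 13.7% and 7.96% of 21501 genes were called in those directions. The alpha subunits had 1 higher and 3 lower, the constitutive beta subunits 0 and 3, the ATPases 2 and 0, the other 19S subunits 2 and 0, and the activators 1 and 4. Psme4 was the activator that rose, from 179 ± 42.8 (SD, n = 5) to 475 ± 117 CPM (n = 17; +1.79), and Psme3 was at 166 ± 103 and 35.1 ± 22.9 CPM (-1.76). Psmc3ip was at 39.9, 125 and 170 CPM and then 464, 660 and 946 CPM (+3.19, SE 0.33). The constitutive catalytic genes Psmb5, Psmb6 and Psmb7 and the regulator Psmf1 (+1.11, edgeR adjusted p = 0.0656) did not pass the test. These counts depend on the scaling: total counts gave 3 higher and 27 lower, and DESeq2 2 and 40, with all-gene medians moved by -0.37 and -2.32. Shares of all genes called under total counts and DESeq2 are not given here, so those counts cannot be set against other genes. The median fold change of the members minus that of all genes was -0.43, -0.94 and +0.18 under the 3 scalings. The directions of Psma7, Psma8, Psme1, Psme2, Psmb10 and Psmc3ip were the same in all 3, whereas Psme4 was at +0.16 and not called with DESeq2.

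Sertoli-like cells had 5 genes higher and 26 lower of 49 than pachytene-like cells (16% and 14.3% of all genes), and Leydig-like cells 11 higher and 9 lower (16.9% and 14.1%). In Sertoli-like cells 8 of 11 non-ATPase cap subunits and 4 of 6 ATPases were lower. Psmd10, a cap assembly chaperone also called gankyrin, was higher, at 0, 44.4 and 91.9 CPM (+3.14, SE 0.56). In Leydig-like cells the 3 constitutive and 3 alternative beta subunits called were all higher, while 2 ATPases and 2 other cap subunits were lower. Scaling moved these splits too: total counts gave 7 higher and 13 lower in Sertoli-like and 12 and 10 in Leydig-like cells, and DESeq2 14 and 5 and 39 and 2, with the median of all genes moved by +1.83 and +1.81. Shares of all genes called under total counts and DESeq2 are not given here. Psmc3, the most abundant ATPase, was at 182, 329 and 647 CPM in Leydig-like and from 675 to 1348 CPM in pachytene-like samples, and its fold change was -1.26 with TMM and +0.01 with DESeq2.

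From pachytene-like to division-like cells in WT, 11 of 46 tested genes rose and 16 fell, where 29.6% of all genes rose and 12.2% fell. The median fold change was -0.13 over the members and +0.57 over all 17078 genes. With total counts 5 rose and 30 fell and with DESeq2 5 and 34 (of 45), as the median of all genes moved by -0.50 and -0.80. Shares of all genes called under total counts and DESeq2 are not given here. Relative to that median, the members were 0.70, 0.79 and 0.54 lower under the 3 scalings. With TMM, 4 of 8 alpha and 4 of 7 constitutive beta subunits and 3 of 4 core assembly chaperones fell, and 1, 1 and 0 rose. The core chaperone Psmg3 was at 0, 31.3 and 49.7 CPM and then 0, 3.15 and 10.9 CPM (-2.53, SE 0.47).

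Among the catalytic genes, Psmb5 (-0.36, SE 0.20) and Psmb7 (+0.05, SE 0.24) did not pass the test. Psmb6 was at 430, 564 and 673 CPM and then 378, 491 and 752 CPM, overlapping ranges whose fold change was +0.38 with TMM, -0.20 with total counts and -0.26 with DESeq2, so its direction was not settled. In the cap, 2 ATPases and 3 other subunits rose and 2 of each fell. The risers were led by the ATPases Psmc2 (+1.00, SE 0.11) and Psmc3 (+0.98, SE 0.10), and the deubiquitinating subunit Psmd14 fell (-1.17, SE 0.17).

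Psmd10 had the largest change of any proteasome gene at this step. It was at 0, 0 and 6.35 CPM in pachytene-like cells, where a single UMI was counted over the 9 libraries, and at 34.4, 78.5 and 93.1 CPM in division-like cells, without overlap (+6.16, SE 0.48, edgeR adjusted p = 8.04e-36). It stayed at 36.3, 71.5 and 84.8 CPM in round spermatid-like cells and fell to 0, 11.4 and 21.1 CPM in elongating cells (-1.91, SE 0.21). Psmd10 is the only member on the X chromosome (X:140948429-140956728), which is transcriptionally silenced in pachytene spermatocytes. Of 624 X-linked genes tested, 228 rose and 2 fell at the same step, with a median fold change of +1.76. That is 36.5% rising, where 29.6% of all genes rose with a median of +0.57. From division-like to round spermatid-like cells 198 X-linked genes rose and 35 fell, with a median of +0.66. That is 31.7% rising, where 22.7% of all genes rose. The part of X silencing in the course of Psmd10 was not tested.

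The activator Psme4 and the regulator Psmf1 rose from pachytene-like to division-like cells. Psme4 was at 200.2, 522 and 588 CPM and then 581, 839 and 995 CPM (+1.38, SE 0.11, edgeR adjusted p = 1.34e-36). Psmf1, which encodes the proteasome inhibitor PI31, was at 87.7, 121 and 261 CPM and then 146, 184 and 246 CPM (+0.91, SE 0.16), a rise not called with total counts (+0.32) or DESeq2 (+0.28). Psmc3ip was at 554, 671 and 946 CPM and then 316, 427 and 473 CPM. Its CPM ranges did not overlap, but its fold change after TMM scaling was -0.11 and not called.

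From division-like to round spermatid-like cells most members fell. Of 46 tested, 31 fell and 5 rose, where 27.9% of all genes fell and 22.7% rose, and the member median was -0.70 against -0.16 for all genes. With total counts 33 fell and 3 rose and with DESeq2 23 and 7, and members were 0.54, 0.57 and 0.44 below the median of all genes under the 3 scalings. Shares of all genes called under total counts and DESeq2 are not given here. With TMM, those that fell included 6 of 8 alpha, 6 of 7 constitutive beta, 4 of 6 ATPase and 10 of 11 other cap subunits. Psmb1, a structural beta subunit, was at 115, 144 and 174 CPM and then 7.25, 19.3 and 33.6 CPM (-2.43, SE 0.15), Psmd3 at 17.1, 64.1 and 114 CPM and then 1.99, 9.22 and 13.8 CPM (-2.78, SE 0.21), and Psmd14 at 17.1, 46.6 and 65.2 CPM and then 0, 9.22 and 14.5 CPM (-2.37, SE 0.23). None of these 3 overlapped between the stages. Of the catalytic genes, Psmb5 fell from 46.4 ± 17.7 to 23.8 ± 14.95 CPM (SD, n = 9 and 11; -0.93), Psmb7 from 35.9 ± 14.2 to 20.7 ± 11.6 CPM (-0.67, not called with DESeq2), and Psmb6 did not pass the test (-0.12).

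Psma6, Psmf1 and Psme3 went against this fall, and the other rises were those of Psme4 and the core chaperone Psmg2. Psme3, a nuclear 11S activator subunit also called PA28γ, was at 19.01, 30.8 and 40.5 CPM in division-like cells and 139, 191 and 212 CPM in round spermatid-like cells, without overlap (+2.74, SE 0.14, edgeR adjusted p = 2.58e-80). Psmf1 was at 239, 574 and 850 CPM (+1.87, SE 0.10, edgeR adjusted p = 8.31e-75), its lowest sample below the highest division-like sample. The alpha subunit Psma6 was at 373, 456 and 855 CPM and then 783, 1083 and 1269 CPM (+1.52, SE 0.09). These 3 genes rose in share while most other subunits fell. The rises of Psme4 (+0.21) and Psmg2 (+0.31) were small and not called with total counts.

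**Figure D3:**
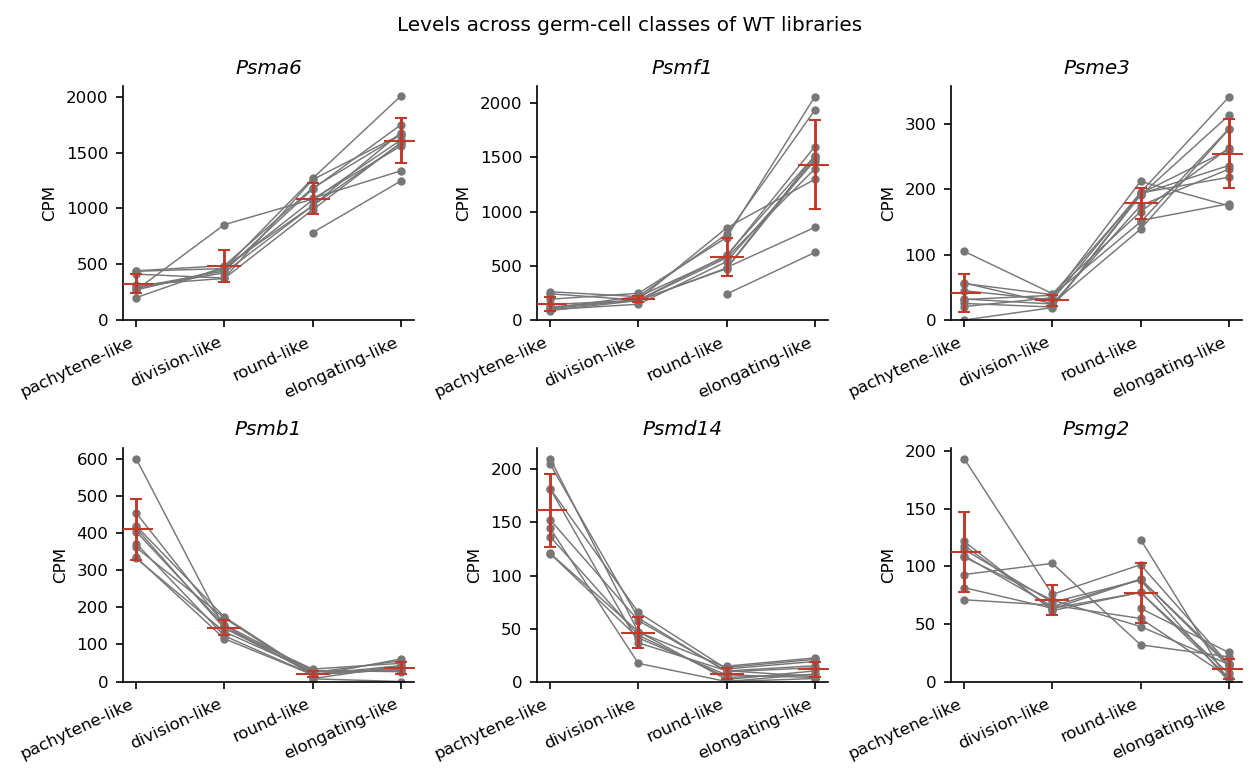
CPM of 6 proteasome genes in each WT library (grey points, joined by lines) from pachytene-like to elongating spermatid-like cells, with the mean and SD in red. Psma6, Psmf1 and Psme3 climb to the spermatid classes, Psmb1 and Psmd14 drop from pachytene-like to round spermatid-like cells, and Psmg2 drops between the spermatid classes.

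From round to elongating spermatid-like cells 12 of 46 members rose and 16 fell, where 15.6% of all genes rose and 19.2% fell, and the member median was -0.06 against -0.04 for all genes. With total counts 5 rose and 25 fell and with DESeq2 14 and 14, with all-gene medians moved by -0.43 and +0.19. Shares of all genes called under total counts and DESeq2 are not given here. The 3 climbing genes went on. Psmf1 reached 623, 1491 and 2060 CPM (+1.82, SE 0.08, edgeR adjusted p = 1.43e-105), Psma6 1246, 1613 and 2007 CPM (+1.05, SE 0.08) and Psme3 175, 261 and 341 CPM (+1.07, SE 0.10). All 3 ranges overlapped those of round cells and all 3 rises were called under each scaling. The largest falls were those of the core chaperone Psmg2, from 31.9, 77.4 and 123 CPM to 0, 13.1 and 25.2 CPM (-2.19, SE 0.22, without overlap), of Psmd10 and of the core chaperone Psmg4, from 8.53 ± 3.58 to 1.90 ± 2.49 CPM (-1.36, edgeR adjusted p = 0.0289).

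Of the catalytic genes, Psmb6 fell from 239, 372 and 428 CPM to 92.9, 120.2 and 157 CPM (-1.17, SE 0.11), without overlap, and Psmb5 (-0.53) and Psmb7 (-0.63) did not pass the test. Psmb1 rose from its low in round cells to 0, 37.6 and 60.6 CPM (+1.27, SE 0.21). The 3 ATPases Psmc3, Psmc5 and Psmc6 fell and Psmc2 rose (+0.34), the latter not called with total counts. Psme4 was at 638, 805 and 941 CPM and then 516, 601 and 727 CPM. Its fold change was +0.13 and not called with TMM, -0.36 and called with total counts, and +0.24 and called with DESeq2, so no direction can be given for it at this step. Elongating spermatid-like cells thus had little message for most core subunits, with Psma6 the highest member, followed by Psmf1.

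**Figure D4:**
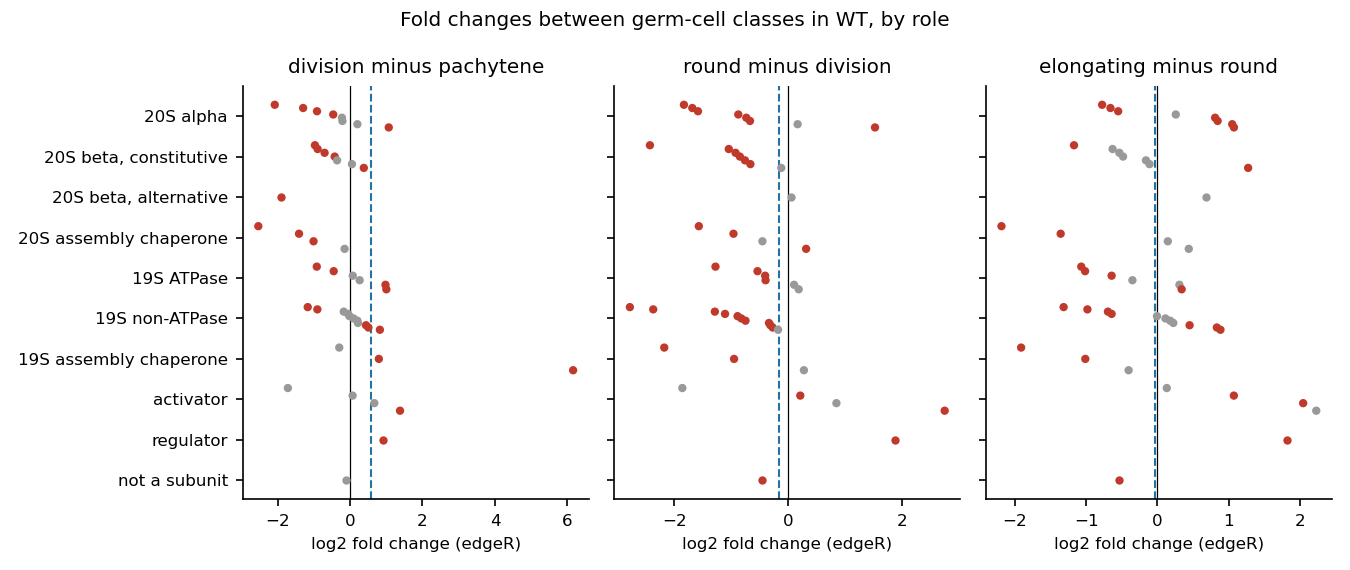
log2 fold change of each tested proteasome gene at the 3 WT stage steps, by role. Red points passed an edgeR adjusted p of 0.05, and the dashed blue line is the median of all genes tested. Most points lie below that line at the first and second step, and Psmd10 is the high point of the first.

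In the sorted libraries the 3 climbing genes were lowest in SPCI, higher in SPCII and highest in SPD among the spermatocytes and spermatids. Psmf1 was at 39.4 CPM (28.8 to 52.5) in SPG, 140.0 (78.4 to 231) in SPCI, 702 (604 to 811) in SPCII and 1227 (1090 to 1376) in SPD. Psma6 was at 362, 336, 920 and 1185 CPM and Psme3 at 141, 65.3, 137 and 190 CPM. Psme4 was at 105, 495, 366 and 434 CPM, lowest in SPG. These libraries had no replicates, so the differences were not tested. With 46.8% elongating and 28.6% round spermatid-like among its filtered cells, SPCII cannot be read as a stage between SPCI and SPD.

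Other genes of the ubiquitin-proteasome pathway, from a list of 32 partners of which 28 were in the files, are given beside the shares of all genes. From pachytene-like to division-like cells 12 rose and 5 fell (42.9% and 17.9%, where 29.6% and 12.2% of all genes did), led by the stress regulator Nfe2l2 (+3.07) and the ubiquitin-activating enzyme Uba1 (+3.00), from division to round 7 rose and 14 fell (25% and 50%, of all genes 22.7% and 27.9%; Uba1 +2.79, from 8.33 to 49.5 CPM; the ubiquitin fusion gene Rps27a -2.16), and from round to elongating 10 rose and 8 fell (35.7% and 28.6%, of all genes 15.6% and 19.2%; Nfe2l2 -2.19). Between pachytene-like and spermatogonia-like cells 5 were higher and 7 lower (17.9% and 25%, of all genes 13.7% and 7.96%), with Uba1 at 3.38 CPM in pachytene-like and 156 CPM in spermatogonia-like cells (-4.53) and Nfe2l2 at -4.32. Uba1 is X-linked. The partners were higher and lower in 6 and 5 cases in Sertoli-like (21.4% and 17.9%, of all genes 16% and 14.3%) and 8 and 5 in Leydig-like cells (28.6% and 17.9%, of all genes 16.9% and 14.1%). Of the antigen presentation genes, 0 rose and 1 fell, 1 rose and 2 fell, and 1 rose and 0 fell of the 6 tested at the 3 WT steps, and 1 was higher and 2 lower of 9 in pachytene-like against spermatogonia-like cells.

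Over whole Mlh3-/- libraries Psma7, Psma8 and the immunoproteasome genes were higher and Psmf1, Psma6, Psme3 and Psme4 lower than in WT. Of 49 tested, 28 were higher and 10 lower, where 32.3% and 28.1% of 23386 genes were called in those directions. The member median was +0.57 against +0.17 for all genes, and total counts, which moved the median of all genes by +0.44, gave 36 higher and 6 lower. The share of all genes called under total counts is not given here. These values use every barcode, and RNA quality went with genotype: of the barcodes past the UMI and gene filters, 11.3% to 84.5% were below the mt-Rnr2 limit in the Mlh3-/- and 81.8% to 99.9% in the WT libraries. In filtered cells alone 26 members were higher and 8 lower, and the share of all genes called in that fit is not given here. The CPM ranges of 25 of 49 members lay above and of 4 below the WT range, where those of 20.3% and 11.1% of all genes did. By role, 7 of 8 alpha, 5 of 7 constitutive and 3 of 3 alternative beta subunits, 3 of 6 ATPases, 3 of 11 other cap subunits, 1 of 3 cap and 3 of 4 core assembly chaperones and 3 of 5 activators were higher.

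The climbing genes were the lowest against WT. Psmf1 was at 29.9, 57.1 and 73.4 CPM in 6 Mlh3-/- and at 241, 533 and 729 CPM in 11 WT libraries (-3.88, SE 0.24), Psma6 at 115, 168 and 206 against 633, 841 and 950 CPM (-2.82, SE 0.18), and Psme3 at 18.6, 24.9 and 48.8 against 86.9, 122 and 143 CPM (-2.74, SE 0.17), all without overlap. Psme4 was at 399, 475 and 653 against 647, 784 and 893 CPM (-1.16, SE 0.17). Spermatid markers moved with them: 12 elongating spermatid markers summed to between 43.3 and 94.4 CPM in Mlh3-/- and between 28625 and 57447 CPM in WT libraries, with Prm3 and Gapdhs at 0 in Mlh3-/-, and 18 round spermatid markers to 4.44, 13.8 and 19.9 against 3480, 4413 and 5251 CPM, with 7 of them at 0. The part of the spermatid share in these levels was not tested over whole libraries.

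The immunoproteasome genes were higher in Mlh3-/- libraries. Psme1 was at 16.7, 39.7 and 103 CPM in Mlh3-/- and 0.725, 1.76 and 3.91 CPM in WT libraries (+4.07, SE 0.37, edgeR adjusted p = 2.51e-11), and Psme2 at 21.7, 39.5 and 100.2 against 1.09, 3.86 and 5.82 CPM (+3.22, SE 0.29). Psmb8 was at 1.89, 8.04 and 16.3 against 0, 0 and 1.29 CPM (+3.49, SE 0.53), Psmb9 at 1.10, 3.35 and 10.5 against 0, 0 and 0.645 CPM (+3.36, SE 0.59), and Psmb10 at 10.3, 22.5 and 44.4 against 2.35, 3.26 and 4.27 CPM (+2.13, SE 0.25). Every Mlh3-/- library was above every WT library for all 5 genes. Psme2b was also higher (+3.03). The catalytic genes they replace differed less: Psmb5 was +0.69 (edgeR adjusted p = 0.0220), Psmb7 +0.31 and not called, and Psmb6 -0.52 with TMM (adjusted p = 0.0109) and -0.01 with total counts, all with overlapping ranges. The antigen presentation genes had 8 of 9 higher and 1 lower (of all genes 32.3% and 28.1%), with Tap2 +4.34 and Tap1 +3.29. Markers of other cells moved with these genes: the Leydig list summed to 1336, 2720 and 9180 CPM in Mlh3-/- and 0, 134 and 390 CPM in WT libraries, the Sertoli list to 1350, 2795 and 6452 against 277, 416 and 821 CPM, and the macrophage list to between 76.02 and 422 against between 14.0 and 37.7 CPM. The T lymphocyte list was lower, from 4.98 to 11.9 against from 14.0 to 37.3 CPM. It does not measure T lymphocytes alone. In WT it summed to 9.75, 51.5 and 89.0 CPM in elongating spermatid-like and 0, 6.35 and 25.1 CPM in pachytene-like cells. The part of any of these cell types in the differences was not tested.

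Psma7 and Psma8 were both higher in Mlh3-/- libraries. Psma7 was at 116, 234 and 556 CPM against 19.6, 32.1 and 42.9 CPM in WT (+2.52, SE 0.22), and Psma8 at 253, 408 and 532 against 28.6, 148 and 178 CPM (+1.17, SE 0.26, edgeR adjusted p = 0.000225), without overlap. Within WT, Psma8 was at 28.6 and 36.4 CPM in the enzymatic libraries and between 113 and 178 CPM in the 9 mechanical ones, and Psmf1 at 241 and 442 CPM against between 503 and 729 CPM. The pathway partners had 12 higher and 8 lower in Mlh3-/- libraries (42.9% and 28.6%, of all genes 32.3% and 28.1%), with a median of +0.17 as over all genes, led by the shuttle factor Ubqln2 (+4.23) and Nfe2l1 (+2.24).

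**Figure D5:**
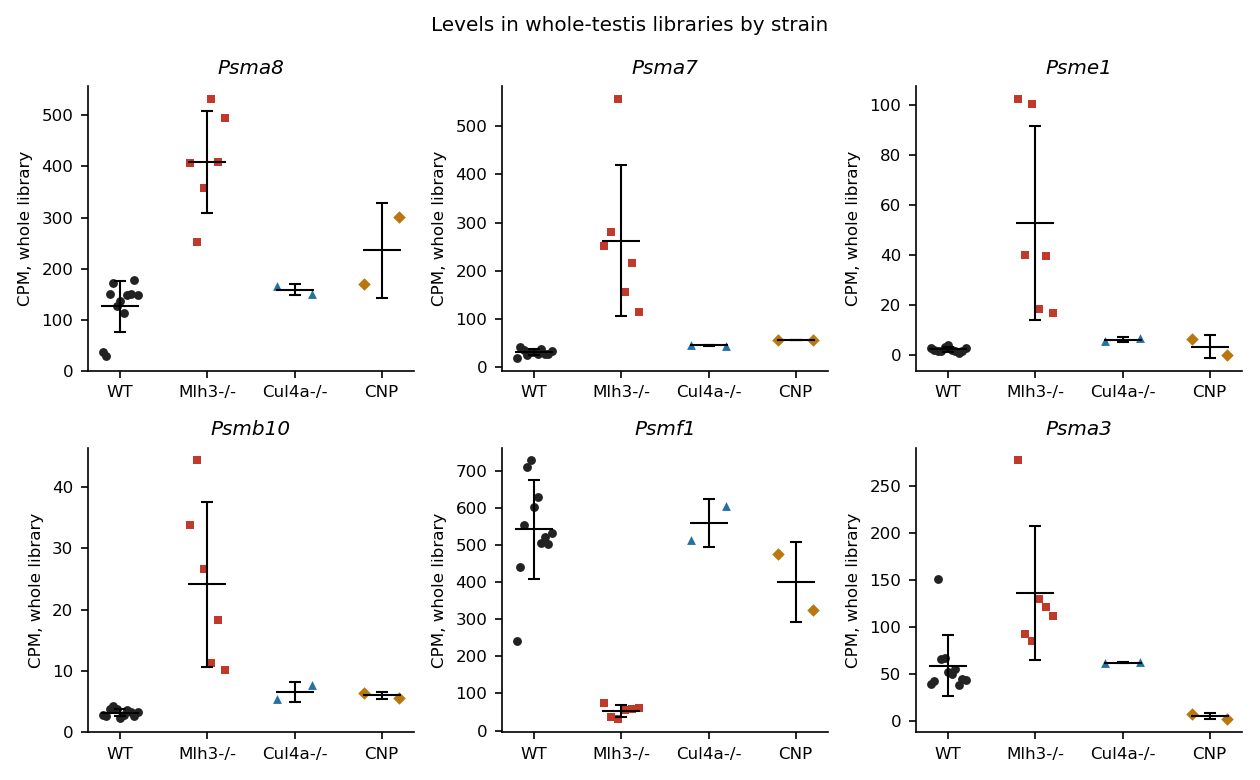
Whole-library CPM of Psma8, Psma7, Psme1, Psmb10, Psmf1 and Psma3 in each strain, with 1 point per library and the mean and SD. Mlh3-/- libraries lie above WT for Psma8, Psma7, Psme1 and Psmb10 and below it for Psmf1, and the 2 CNP libraries lie below WT for Psma3.

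Within pachytene-like cells the Mlh3-/- difference was small. Of 46 genes tested in 5 Mlh3-/- and 9 WT libraries, 0 were higher and 3 lower, where 3.93% and 5.51% of all genes were called. Mlh3-/- replicates 4, 5 and 6, younger than every WT animal, held 180, 182 and 349 of the 772 Mlh3-/- cells in the fit. Psmf1 was at 59.3, 71.1, 72.5, 74.0 and 84.4 CPM in the 5 Mlh3-/- libraries and 87.7, 121 and 261 CPM in WT, without overlap (-1.05, SE 0.22, edgeR adjusted p = 0.000571). Psma6 was at 161, 196 and 264 against 201, 292 and 441 CPM (-0.63, SE 0.17, edgeR adjusted p = 0.0107) and Psmd8 at 322, 411 and 431 against 423, 554 and 758 CPM (-0.48, SE 0.15, edgeR adjusted p = 0.0414), both overlapping. With at least 50 cells per library none of the 3 was called, and Psmd8 lost its call without Mlh3-/- replicate 3, 4 or 5 (adjusted p = 0.108 without replicate 3). Spermatid markers inside these cells moved with the genes: the elongating list summed to 39.5, 64.2 and 73.8 CPM in Mlh3-/- pachytene-like cells, with 4 of 12 detected, and 2845, 3735 and 9118 CPM in WT, and their part was not tested. Psma8 was at 707, 874 and 1047 against 660, 702 and 915 CPM (+0.27, edgeR adjusted p = 0.259) and Psma7 at 56.5, 72.4 and 195 against 25.6, 51.6 and 81.5 CPM (+0.70, edgeR adjusted p = 0.0957). Of the 28 partners, 7 were higher (25%) and 0 lower, Nfe2l1 among them at 52.3 against 16.9 CPM (+1.36), with the Ecm29 gene AI314180 at +1.33, and none of 6 antigen presentation genes was called. Somatic markers were also higher in these samples: the Sertoli list summed to 379, 444 and 2280 CPM in Mlh3-/- and 124, 188 and 242 CPM in WT pachytene-like cells and the Leydig list to 81.3, 146 and 2344 against 0, 19.1 and 41.3 CPM, and their part was not tested.

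In the libraries labelled Cul4a-/- the number of members called depended on which libraries entered the fit. In pachytene-like cells 0 were higher and 0 lower by edgeR, where 0.671% and 0.125% of all genes were called. There 8 of 46 members had an unadjusted edgeR p under 0.05, where 1670 of all 15199 genes did. DESeq2 called 1 member, and its share of all genes is not given here. Psma8 was at 540 and 643 CPM, below the WT range of 660 to 915 CPM, and Psmb7 at 81.2 and 94.4 CPM, above the WT range of 31.0 to 66.9 CPM, but neither passed the test (-0.21, and +0.93 with edgeR adjusted p = 0.196). In round spermatid-like cells 2 were higher and 0 lower (4.36% and 0.916% of all genes). These were Psmb1, at 31.1 and 49.1 against 7.25, 19.3 and 33.6 CPM (+0.97, SE 0.27, edgeR adjusted p = 0.0230), and Psmc3ip, at 369.9 and 394 against 131, 266 and 304 CPM (+0.72, SE 0.21, edgeR adjusted p = 0.0356). Neither was called with total counts, Psmb1 was not called without Cul4a-/- replicate 1, and Psmc3ip was not called without either replicate. In elongating spermatid-like cells 1 was higher and 0 lower (4.87% and 1.63% of all genes): Psmg4, at 4.40 and 8.86 against 0, 0 and 6.57 CPM (+1.88, SE 0.59, edgeR adjusted p = 0.0366), not called with total counts or without either replicate. Both Cul4a-/- libraries were dissociated mechanically and sequenced on a HiSeq. In a fit on such libraries alone (2 against 8 WT), 5 members were higher and 7 lower in round cells (12.9% and 6.35% of all genes), 4 and 1 in elongating cells (10.1% and 3.21%), and 0 and 0 in pachytene-like cells (1.12% and 0.159%).

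Psme4, the spermatoproteasome activator, was below the WT range in Cul4a-/- cells of both spermatid classes. It was at 448 and 468 CPM in round cells, against 638, 805 and 941 CPM in WT (-0.67, edgeR adjusted p = 0.05575), and at 297 and 314 CPM in elongating cells, against 516, 601 and 727 CPM (-0.67, edgeR adjusted p = 0.0765). Neither difference was called with TMM over all libraries. Both were called in the HiSeq mechanical libraries (-0.76 and -0.71, edgeR adjusted p = 3.52e-06 and 0.00147), and over all libraries with total counts (-0.80 and -1.03) and DESeq2 (-0.73 and -0.82), scalings that moved the median of all genes by -0.12 and -0.34 and by -0.17 and -0.21. Over whole libraries Psme4 was at 464 and 471 CPM (-0.73, edgeR adjusted p = 0.104) and Psmc3ip at 557 and 577 against 190, 326 and 354 CPM (+0.89, edgeR adjusted p = 0.0552). Of 49 members tested over whole libraries 0 were called in either direction by edgeR (of all genes 2.99% higher and 0.573% lower). An unadjusted edgeR p under 0.05 was found for 15 of the 49 members and for 4175 of all 23386 genes. DESeq2 called 5 members, and its share of all genes is not given here. The HiSeq mechanical libraries alone gave 7 higher and 2 lower (7.58% and 3.21% of all genes), with Psme4 at -0.85 (edgeR adjusted p = 0.00397). A fit of the 2 groups alone gave 3 higher and 1 lower, and its share of all genes is not given here. Cul4a-/- spermatid-like cells lay largely in clusters with few WT cells, with 55.9% of the round cells in cluster 25 (0.288% of WT) and 51.1% and 28.7% of the elongating cells in clusters 20 and 29 (1.06% and 1.18% of WT). Of the pachytene-like cells 86.8% lay in cluster 9, which also held 43.1% of those of WT. Depth went with genotype as well. The Cul4a-/- libraries had medians of 1703 and 1195 UMIs per barcode, and the HiSeq mechanical WT libraries from 401 to 723. The part of depth in the differences from WT was not tested. The elongating marker sum was from 191730 to 193454 CPM in the Cul4a-/- and from 107551 to 155566 CPM in the WT elongating cells, and its part was not tested. The partners had 0 and 0 called in pachytene-like, 1 higher and 1 lower in round (Zfand5 +1.12, the polyubiquitin gene Ubb -0.95) and 0 and 1 in elongating spermatid-like cells (Ubb, 377 against 952 CPM, -0.99), and 0 and 0 over whole libraries. No antigen presentation gene was called.

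In the CNP libraries the alpha subunit Psma3 stood apart. Of 49 members 0 were higher and 1 lower over whole libraries, where 0.0898% and 0.47% of all genes were called. Psma3 was at 2.84 and 7.74 CPM, 9 UMIs in all, against 38.4, 50.2 and 151 CPM in WT, without overlap (-3.70, SE 0.66, edgeR adjusted p = 0.00265), and it was not called without CNP replicate 2 (adjusted p = 0.503). CPM ranges lay above WT for 13 of 49 members and below it for 2, where those of 6.97% and 3.47% of all genes did. These values use every barcode, and the filters kept 97.4% and 44.1% of the CNP barcodes and 73.4% to 99.7% over WT libraries. The elongating spermatid list summed to 16551 and 29897 CPM in CNP and from 28625 to 57447 CPM in WT libraries. The part of cell mix and RNA quality in the CNP values was not tested. Psma7 was at 56.8 and 56.9 CPM, above the WT range of 19.6 to 42.9 CPM (+0.71, edgeR adjusted p = 0.584), and Psma8 at 170.2 and 301 against 28.6, 148 and 178 CPM (+0.74), and neither passed the test. Of the partners, 0 were higher and 2 lower, Rps27a at 1.76 ± 1.15 against 136 ± 77.6 CPM (SD, n = 2 and 11; -6.49) and the cap's ubiquitin receptor Adrm1 at 19.1 against 55.7 CPM (-1.72), and no antigen presentation gene was called.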

How the data were processed

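For each library the authors deposited 1 table of raw UMI counts (genes by cell barcodes). It came from Drop-seq tools and alignment to mm10 (GRCm38), with STAR 2.5.3a per the labels, and was not normalized. All values were whole counts of at least 0. The 50 genes, the gene lists (32 proteasome partners, 9 antigen presentation genes, cell type markers) and the tests were chosen with earlier results of these data known. Coordinates are GENCODE vM21 and sequences RefSeq (GRCm38.p6).

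Barcodes were filtered by the UMI, gene and mt-Rnr2 limits of the study's methods (48642, then 44404, 44340 and 36619). The study also removed a group of cells with few UMIs and much mitochondrial RNA, which it took for poor cells or doublets. That step was not applied here. Genes of low mean level and the 50 were left out, and square-rooted, scaled counts of the other 19447 genes were clustered (Leiden at resolution 2, leidenalg 0.10.2). Of the 43 clusters, 28 were named from markers, and naming conditions were completed after the clusters were seen. No doublet caller was run. Whole-library values use every barcode.

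Counts were summed per library and class (at least 10 cells) and fitted with edgeR 4.0.16 (R 4.3.3; quasi-likelihood test, TMM, genes with at least 5 counts over the fit, Benjamini-Hochberg over all genes tested), with the library as block between classes and all strains in 1 fit between strains. Every library is 1 GEO sample. Where nothing says that replicates were separate animals, p-values measure the spread between samples. Mlh3-/- replicates 2 and 3 have the same age (8 months and 30 days), and whether they came from 1 animal was not checked. The procedure was tested on simulated data. Alternatives were DESeq2 1.42.0, total-count scaling, edgeR's filterByExpr, no count filter, no library block, HiSeq libraries of mechanical dissociation, at least 50 cells, Leiden resolution 1, clustering with the 50 genes, the UMI and gene filter only, platform as covariate, a replicate block, the compared groups only and each replicate left out. Replicate numbers did not pair samples: deviations of same-numbered samples correlated at -0.10 to 0.093.

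The genes named were the alternative subunits and their counterparts, the activators, Psmf1 and Psmc3ip, and in each comparison the 3 members of largest called change in each direction. Other members, named to complete a count of 5 or fewer or singled out (Psmc2, Psmc3, Psmc5, Psmc6, Psmd14 after pachytene), were chosen after their values were seen.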

Additional observations from a re-analysis of the deposited data

Results flagged for a closer look

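In groups of 4 to 10 samples, a sample was picked out where its gap to the nearest other, divided by the range of the group, passed Dixon's 95% critical value. Of 68 groups of genes the text names, 9 had such a sample, and chance gives about 5% of groups.

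Over whole libraries, Psma7 was at 556.1 CPM in Mlh3-/- replicate 3 (next highest 279.5), Psmb5 at 170.1 CPM in Mlh3-/- replicate 1 (next 91.06) and Psme3 at 48.81 CPM in Mlh3-/- replicate 2 (next 27.16). In WT division-like cells, replicate 3 had the highest Psmb5 (85.49 CPM, next 53.03) and Psmb6 (752.3 CPM, next 555.9). In Mlh3-/- pachytene-like cells, replicate 1 had the highest Psme2 (42.19 CPM, next 6.043) and the lowest Psme3 (10.55 CPM, next 25.97), and the same cells had the highest Leydig marker sum of the pachytene-like samples, 2344 CPM. In Leydig-like cells, Mlh3-/- replicate 1 had the highest Psma8 (359.9 CPM, next 146.1) and Cul4a-/- replicate 2 the highest Psmb9 (82.9 CPM, next 37.22). Of these libraries, WT replicate 3 and Mlh3-/- replicates 1 and 2 were sequenced on a MiSeq, and Mlh3-/- replicate 3 and Cul4a-/- replicate 2 on a HiSeq. What sets these samples apart was not tested.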

How the results depend on the processing

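Over the alternatives, 2041 gene values stayed on their side of the threshold, 104 passed it anew, 67 lost it and 13 reversed. A reversal needed a call in the main or the alternative fit, so changes of sign in genes called in neither are not counted as reversals. Of the counts and shares, 140 stayed and 39 moved. Counts stayed where they were within 1.5 times, and shares where they were within the exact interval or the SD over libraries. The reversals came with scaling or choice of libraries: Psmb6 after pachytene (-0.26 with DESeq2, -0.20 with total counts) and after division (+0.38 in HiSeq mechanical libraries), Psme4 after the round stage (-0.36 with total counts), and with DESeq2 Psmb5 (-1.59) and Psmb6 (-1.38) in pachytene-like against spermatogonia-like, Psmb6 (0.00904) and Psme4 (0.50) in Sertoli-like, and Psmb6 (1.00), Psmb7 (1.00), Psmc3 (0.0105), Psme4 (0.20) and Psmf1 (0.93) in Leydig-like cells. The cause was not tested.

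Counts of members called moved as follows. Apart from the HiSeq mechanical libraries, the shares of all genes called under these alternatives are not given here. Such counts cannot be set against other genes. Pachytene-like against spermatogonia-like cells gave 42 with DESeq2, Sertoli-like cells 19 with DESeq2 and 20 with total counts, and Leydig-like cells 41 with DESeq2. Mlh3-/- pachytene-like cells gave 0 with at least 50 cells and 1 with the UMI and gene filter only. Cul4a-/- pachytene-like cells gave 1 with DESeq2, 1 with at least 50 cells, 4 at Leiden resolution 1 and 3 with the 2 groups only. Cul4a-/- round cells gave 4 with DESeq2, 1 with total counts, 12 in HiSeq mechanical libraries, 4 with at least 50 cells, 1 at Leiden resolution 1 and 6 with the UMI and gene filter only. Cul4a-/- elongating cells gave 4 with DESeq2, 3 with total counts, 0 without a count filter, 5 in HiSeq mechanical libraries, 3 with at least 50 cells, 0 at Leiden resolution 1, 0 with the UMI and gene filter only and 2 with platform as covariate. Cul4a-/- whole libraries gave 5 with DESeq2, 2 with total counts, 9 in HiSeq mechanical libraries, 2 with platform and 4 with the 2 groups only. The median CNP share of Psmb9 was 0 both with every barcode and in filtered cells, and was counted as moved only because its SD was 0. With the replicate block, which rests on numbers alone, the counts were 0 in Cul4a-/- round, elongating and pachytene-like cells, 1 in Cul4a-/- and 3 in CNP whole libraries, 2 in Mlh3-/- pachytene-like cells and 29 in Mlh3-/- whole libraries.

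With each replicate left out, the counts ran from 0 to 1 in CNP libraries, 0 to 1 in Cul4a-/- round cells, 0 to 0 in the other 3 Cul4a-/- comparisons, 2 to 3 in Mlh3-/- pachytene-like cells and 16 to 22 in pachytene-like against spermatogonia-like cells. Trended dispersions (estimateDisp), chosen after seeing the data, changed no count by over 1.5 times. Depth limits the alternative beta subunits and Psme1 in germ cells, the sorted spermatocytes and the spermatogonia-like class of 73 cells.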

Other observations

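Unnamed clusters held 16267 of 25052 filtered WT cells (64.9%; 17.6% to 82.5% over libraries), 64.1% of those of the CNP libraries (1577 of 2462), 38.4% of the Cul4a-/- (2098 of 5462) and 35.0% of the Mlh3-/- cells (975 of 2786). They entered no comparison between classes. In the WT libraries these cells had Psma8 at 46.5, 157 and 201 CPM (lowest, median, highest), Psma7 at 12.01, 29.6 and 38.1, Psma6 at 366, 623 and 825 and Psmf1 at 137, 458 and 665 CPM. In the Mlh3-/- libraries they had Psma8 at 204, 268 and 378 CPM and Psma7 at 34.6, 57.9 and 111 CPM. Psma3 was highest of its strain in WT replicate 3 (151 CPM) and in Mlh3-/- replicate 1 (277 CPM).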
